A study of Homo sapiens with 4 samples.

Results

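The S100 genes encode small, mostly calcium-binding proteins, and 10 of them were followed in MDA-MB-231 cells: S100A2, S100A3, S100A4, S100A6, S100A7, S100A8, S100A9, S100A10, S100A11 and S100P. They were chosen by gene symbol and were represented by 12 of the 47323 probes of an Illumina HumanHT-12 v4 bead array. MDA-MB-231 is an established human breast cancer line of mesenchymal appearance. The 2 shT7#1 arrays held total RNA of cells transduced with a short hairpin RNA against TRPM7, a divalent cation channel fused to a kinase. The 2 shCntrl arrays held RNA of the same line transduced with a scrambled hairpin. The shT7#1 group rests on 1 hairpin, and both groups were cultured in DMEM with Glutamax, fetal bovine serum and antibiotics. By its title, the study was about TRPM7, SOX4 and the mesenchymal character of breast cancer cells.

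Most S100 proteins form dimers whose EF-hand loops bind calcium and thereby open a surface for target proteins. Inside cells they meet annexins, myosin and other cytoskeletal partners. Several are also secreted and act on receptors such as RAGE (gene AGER) and TLR4. S100A4 is known in breast cancer for its link to motility and metastasis, while S100A2 is known as a gene of normal breast epithelium that is often silenced in tumours. Most of the family lies in one cluster on chromosome 1, whereas S100P lies on chromosome 4.

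The family split into members at or near background and members with clear signal, among which one fell and one rose. S100A2 fell 2.53-fold in shT7#1, S100A3 rose 1.81-fold, and S100A4, S100A6, S100A10 and S100A11 were not called. A probe was taken as above background where its detection p, set against negative control beads, was below 0.05. Genes above background on at least 2 of the 4 arrays were tested with limma, which 6 of the 10 members reached. Of these 6, 1 was higher and 1 was lower at an adjusted p under 0.05, while over all 14731 genes tested 2.95% were called higher and 3.55% lower. The median log2 change of the 6 members was -0.17, beside -0.000301 over all genes tested. With 2 arrays a group, only large changes relative to the array spread can pass, and nothing in the labels says that the arrays came from separate cultures. In bulk RNA, fewer cells with a transcript and less transcript per cell cannot be told apart.

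The 2 called members lie next to each other on chromosome 1, so the sequences before their starts are shown first. They are the 250 bases upstream of the outermost start that RefSeq lists for each gene (build GRCh38.p14, minus strand), written 5′ to 3′. The S100A2 window is chr1:153565845-153566094 and the S100A3 window is chr1:153549259-153549508. Capitals mark matches to the motifs searched.
S100A2: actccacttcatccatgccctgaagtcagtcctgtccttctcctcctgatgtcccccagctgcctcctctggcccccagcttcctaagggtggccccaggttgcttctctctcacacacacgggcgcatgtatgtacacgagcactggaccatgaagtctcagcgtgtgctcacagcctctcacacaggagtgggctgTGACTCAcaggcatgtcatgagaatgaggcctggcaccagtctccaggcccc
S100A3: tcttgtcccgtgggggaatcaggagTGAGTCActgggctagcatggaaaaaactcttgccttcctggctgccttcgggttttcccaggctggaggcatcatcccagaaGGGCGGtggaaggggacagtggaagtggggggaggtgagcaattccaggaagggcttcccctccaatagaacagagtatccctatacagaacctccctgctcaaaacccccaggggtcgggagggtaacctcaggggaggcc

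The motifs were the AP-1 core TGANTCA, the TATA box TATAAA, the GC box GGGCGG, the SOX site AACAAAG and the NF-kB consensus, each on both strands. In the windows shown no match overlaps another. Each of the windows shown holds 1 AP-1 core, which begins 52 bases before the start in S100A2 and 225 bases before it in S100A3. That core was present in 6.57% of the 35114 windows of the same length in the table. Among the 10 members, which have 13 listed starts, the AP-1 core was found before S100A2 and S100A3 and before no other member. It was also found before the relatives S100A5, which was not called, and S100A12, which was not detected, and not before S100A16, a relative called lower. The second listed start of S100A2 has none of the motifs before it. The TATA box, present in 10.72% of all windows, was found before 5 members, namely S100A4, S100A7, S100A8, S100A9 and S100P. The GC box stood before S100A3, S100A6, S100A9, S100A10 and S100A11, beside 42.64% of all windows. No member window held the SOX site (4.5% of all windows) or the NF-kB consensus (9.96%). The windows of S100A10 and S100A6 each held 24 CG pairs, while those of S100A2 and S100A3 each held 4 at the start shown, beside a median of 11 over all windows. These letter matches are descriptions of the windows and show no binding.

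S100A2 was lower on both shT7#1 arrays than on either shCntrl array. Its normalised log2 signal was 7.91 and 7.67 on the shT7#1 arrays, against 9.28 and 8.98 on the shCntrl arrays. Before normalisation the probe read 317 and 315 units in shT7#1 and 685 and 631 units in shCntrl. The group means were 7.79 ± 0.17 in shT7#1 and 9.13 ± 0.21 in shCntrl (SD, n = 2 each). The log2 change was -1.34 ± 0.16 (SE), with a 95% confidence interval from -1.74 to -0.94 and an adjusted p by limma of 0.0136. The intervals given here are those of 1 gene and are not widened for the number of genes tested. The change in the authors' deposited table is 0.37-fold. On their processed values the same limma fit gave -1.42 log2 units with an adjusted p of 0.0613. The decrease kept its size when any 1 array was left out, between -1.49 and -1.19 log2 units. Its adjusted p was then 0.0708 without shT7#1 replicate 1, 0.0809 without shT7#1 replicate 2, 0.0718 without shCntrl replicate 1 and 0.0491 without shCntrl replicate 2.

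S100A3, a cysteine-rich member best known from the hair cuticle, moved the other way. Its log2 signal was 11.21 and 10.99 in shT7#1, against 10.24 and 10.23 in shCntrl. Both shT7#1 arrays stood above both shCntrl arrays, and the shCntrl arrays nearly coincided. The means were 11.10 ± 0.15 in shT7#1 and 10.24 ± 0.0082 in shCntrl (SD, n = 2 each). This is a log2 change of 0.86 ± 0.13 (SE), with an interval from 0.54 to 1.18 and an adjusted p by limma of 0.0242. The authors' deposited table lists S100A3 at 1.83-fold. As for S100A2, the call was not made by limma on their processed values, where the change was 0.87 with an adjusted p of 0.0818. Without 1 array the change lay between 0.75 and 0.97, and its adjusted p was 0.128 without shT7#1 replicate 1, 0.0809 without shT7#1 replicate 2, 0.115 without shCntrl replicate 1 and 0.106 without shCntrl replicate 2. S100A2 and S100A3 have 1 probe each, and binding of related transcripts to these probes was not tested.

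**Figure D1:**
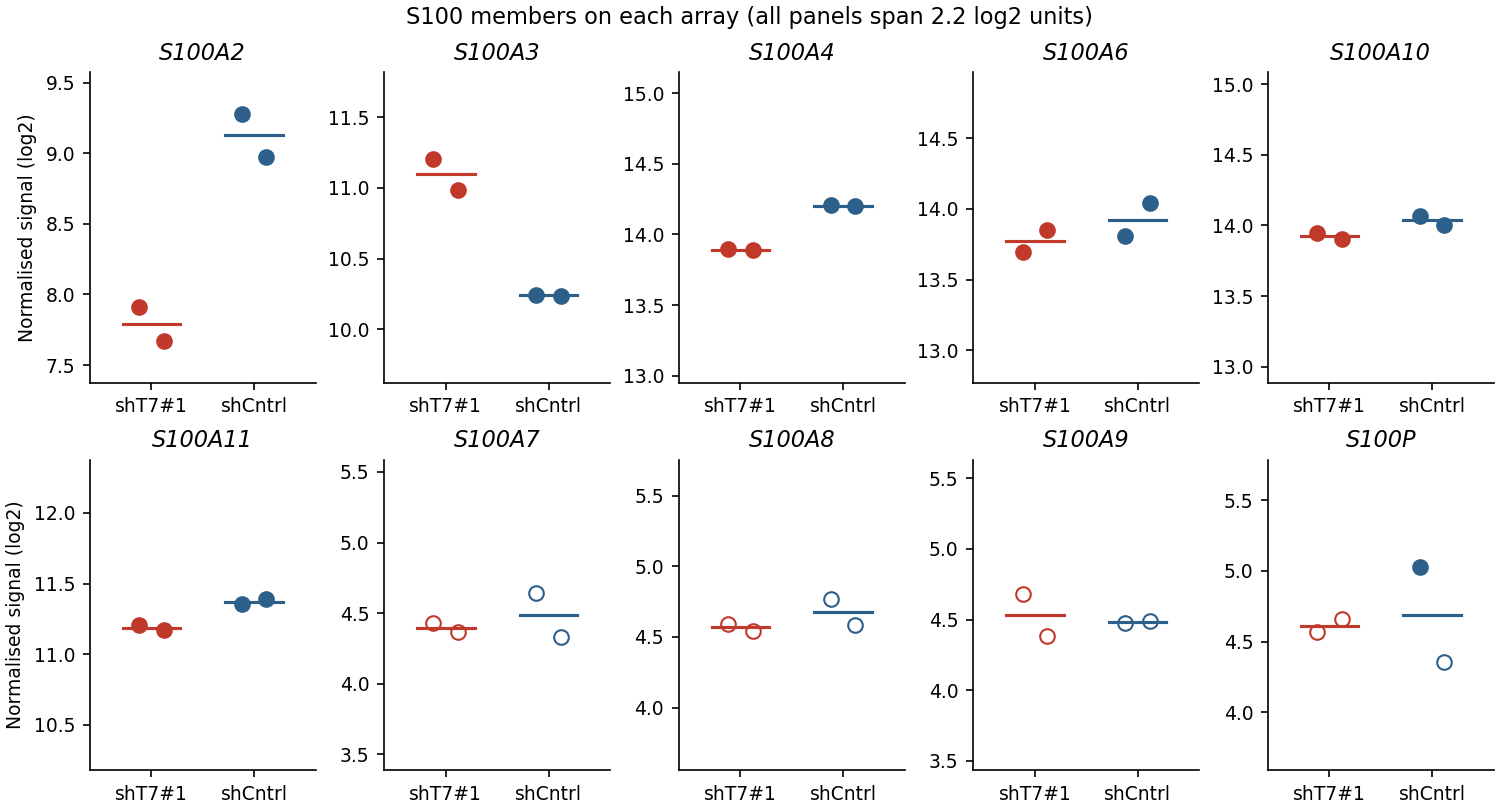
Normalised log2 signal of the 10 S100 members on each array, with shT7#1 in red on the left and shCntrl in blue on the right of each panel. Points are arrays, filled where the detection p was below 0.05 and open where it was not, and lines are group means of 2 arrays. S100A2 was lower and S100A3 higher in shT7#1, while S100A7, S100A8 and S100A9 have open points on all 4 arrays.

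S100A4, the metastasis-linked member that binds non-muscle myosin, lay lower in shT7#1 at both of its probes but did not pass the test. The brighter probe gave 13.90 and 13.89 log2 units in shT7#1, against 14.21 and 14.20 in shCntrl. Its change was -0.31 ± 0.11 (SE), with an interval from -0.59 to -0.03, an unadjusted p of 0.0335 and a limma adjusted p of 0.155. The second probe gave 13.51 and 13.42 in shT7#1, against 13.86 and 13.86 in shCntrl. In the limma fit over all 20366 passing probes its change was -0.39 ± 0.12 (SE), with an adjusted p of 0.132. At either probe the shT7#1 arrays lay below the shCntrl arrays, with replicate arrays close together. S100A4 was called lower in 2 of the 15 other settings tried, with an adjusted p of 0.0229 without background correction and of 0.00523 where limma let the spread follow the signal level. The authors' deposited table lists it at 0.78-fold.

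The other strongly expressed members moved little. S100A6, which binds the ubiquitin ligase adaptor CACYBP, had a log2 signal of 13.70 and 13.85 in shT7#1, against 13.81 and 14.04 in shCntrl. The groups overlapped, and the change was -0.15 ± 0.14 (SE), with an interval from -0.50 to 0.19 and a limma adjusted p of 0.554. S100A11, a partner of annexin A1 with a part in membrane repair, gave 11.21 and 11.17 in shT7#1, against 11.36 and 11.39 in shCntrl. Its arrays did not overlap between groups, but the change of -0.18 ± 0.11 (SE) had an interval from -0.46 to 0.09 and a limma adjusted p of 0.368.

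S100A10, the partner of annexin A2 in a surface complex that binds plasminogen, was read by 2 probes that pointed in opposite directions. The brighter one gave 13.944 and 13.903 in shT7#1, against 14.067 and 14.004 in shCntrl, a change of -0.11 ± 0.11 (SE) with an interval from -0.39 to 0.17 and a limma adjusted p of 0.596. The other gave 13.98 and 13.90 in shT7#1, against 13.83 and 13.82 in shCntrl. Its change in the probe fit was 0.11 ± 0.12 (SE), with an interval from -0.19 to 0.41 and a limma adjusted p of 0.644. No direction can be given for S100A10. Unlike S100A2, S100A3 and S100A11, the probes of S100A4, S100A6 and S100A10 read near the top of the scale. Before normalisation the S100A4 probe read 15270 and 15776 units in shT7#1 and 19659 and 18165 units in shCntrl, where the highest signal of any probe lay between 20673 and 22137 units. Loss of linearity at such levels was not tested. Counted together, 5 of the 6 tested members had groups that did not overlap, as had 55.7% of all genes tested.

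**Figure D2:**
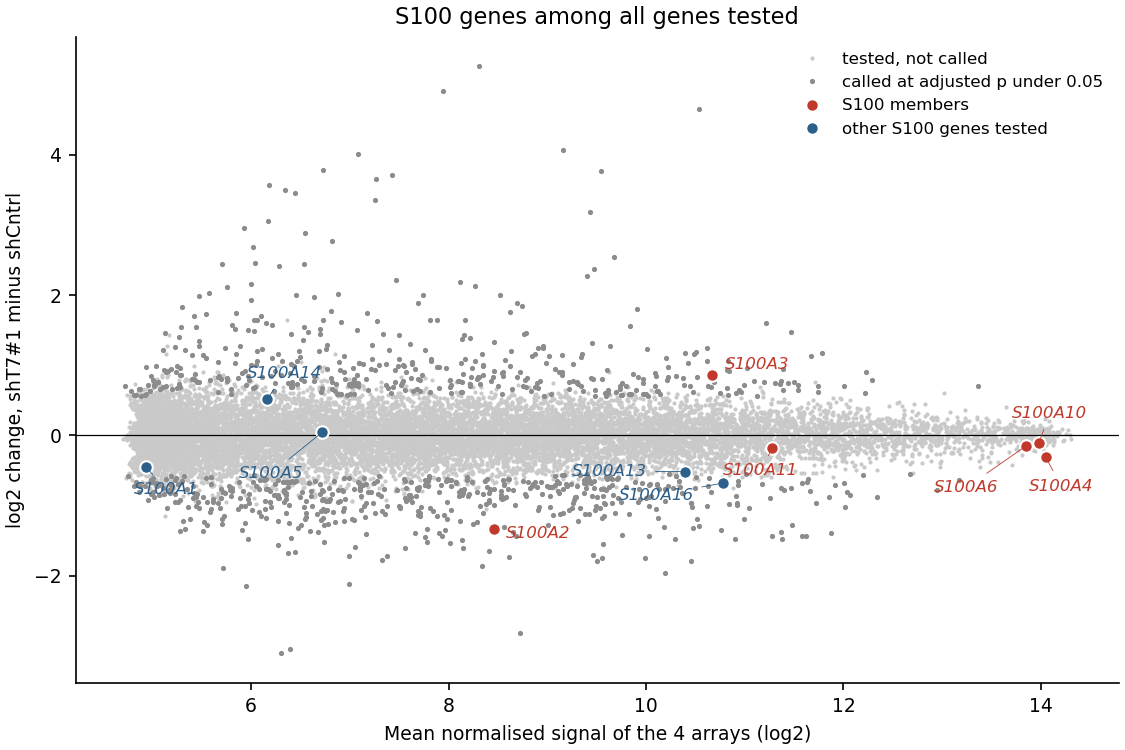
The log2 change of each of the 14731 tested genes (shT7#1 minus shCntrl) against its mean normalised log2 signal over the 4 arrays, with grey points for all genes and darker grey for those called. Red points are the 6 tested S100 members and blue points the 5 other S100 genes tested. S100A2 at -1.34 and S100A3 at 0.86 lie among the called genes, and S100A4, S100A6 and S100A10 sit at the bright end.

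The inflammatory members were not detected. S100A8 and S100A9, which join to form calprotectin of neutrophils and inflamed epithelia, gave signals at the level of the negative controls in both groups. S100A8 had a log2 signal of 4.59 and 4.54 in shT7#1, against 4.77 and 4.59 in shCntrl, and its lowest detection p on any array was 0.117. S100A9 gave 4.68 and 4.38 in shT7#1, against 4.47 and 4.49 in shCntrl, with a lowest detection p of 0.162. S100A7, known as psoriasin of inflamed skin and of early breast lesions, gave 4.43 and 4.36 in shT7#1, against 4.65 and 4.33 in shCntrl. The lowest detection p of S100A7 was 0.212. For comparison, the lowest signal of a probe above background lay between 4.92 and 4.98 log2 units. These genes were not tested in the main fit, and a transcript below this level would not be seen. S100P, which is best known from placenta and from gut and pancreatic tumours, was above background on 1 array only. It gave 4.57 and 4.66 in shT7#1, against 5.02 and 4.35 in shCntrl, where replicate 1 had a detection p of 0.0390 and replicate 2 one of 0.895. The authors' deposited table lists S100A8 at 0.81-fold and S100P at 0.95-fold, values taken from probes not above background on at least 3 of the 4 arrays.

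Some cytokine genes from a list of known inducers of S100A8 and S100A9, namely CSF2, IL6, IL1A, TNF and IL1B, were higher in the same arrays. Of 15 tested genes in that list of 22 inducers and transcription factors, 6 rose, 1 fell and 8 were not called, beside 2.95% higher and 3.55% lower over all genes tested. IL1A, TNF and IL1B passed the detection filter only through shT7#1 arrays, so the count describes the detected genes alone. The median of the list was 0.36 log2 units, beside -0.000301 over all genes tested. CSF2, a growth factor of myeloid cells, rose by 3.77 ± 0.13 log2 units (SE) and IL6 by 3.19 ± 0.12, with limma adjusted p of 0.000457 and 0.000654. On the shCntrl arrays neither IL1A nor TNF passed background, and in shT7#1 they were at least 8.93-fold and 5.51-fold higher. NFKBIZ, a nuclear NF-kB cofactor, rose by 1.38 ± 0.11 log2 units (SE). The authors' deposited table lists a smaller rise for NFKBIZ, at 1.44-fold, beside 14.98-fold for CSF2 and 9.92-fold for IL6. That table gives 1 value a gene, while the fit here took the brightest passing probe, so the measures are not the same. The bounds set the mean of the shT7#1 arrays against the detection floor or the gene's own signal on each shCntrl array, whichever was higher. Such bounds, here and below, take no account of the spread between arrays. IL1B was the remaining gene that rose, at least 2.42-fold. Its shT7#1 arrays lay apart, at 6.68 and 5.75 log2 units. The limma adjusted p of IL1B was close to the threshold, at 0.0452 in the gene fit and 0.0524 in the probe fit. The transcription factor gene RUNX1, which fell by 0.74 log2 units, was the gene that fell. IL1B and RUNX1 are named after their values were seen. This list was drawn up with earlier results of these arrays known.

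Antimicrobial and barrier genes that accompany S100A7, S100A8 and S100A9 in inflamed epithelia were mostly undetected. Of 35 genes in that list 8 were tested, of which 5 rose, 0 fell and 3 were not called, against the same 2.95% and 3.55% of all genes tested. Those that rose were the acute-phase genes SAA1 and SAA2 at 4.07 and 4.02 log2 units, the chemokine gene CCL20 at least 3.12-fold, LCN2, which encodes an iron-siderophore carrier, at least 1.99-fold, and the transglutaminase gene TGM1 at least 2.05-fold. CCL20, LCN2 and TGM1 passed the detection filter only through shT7#1 arrays, so the same limit holds for that count.

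Among the S100 genes outside the set, 5 of 11 were tested, and of these 0 rose, 1 fell and 4 were not called, beside 6.50% of all genes tested called in either direction. S100A16, a widely expressed member, fell 1.6-fold. Its log2 signal was 10.49 and 10.38 in shT7#1, against 11.20 and 11.03 in shCntrl, which is -0.68 ± 0.13 (SE), and limma gave an adjusted p of 0.0392. That call was close to the threshold. The adjusted p was 0.0506 with median scaling, 0.0540 without a detection filter and 0.103 on the authors' processed values. It was 0.146 without shT7#1 replicate 1, 0.152 without shT7#1 replicate 2, 0.166 without shCntrl replicate 1 and 0.107 without shCntrl replicate 2.

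S100A13, which takes part in the export of FGF1, was read by 6 probes, of which 3 passed and disagreed. Its brightest probe gave 10.14 and 10.13 in shT7#1, against 10.61 and 10.69 in shCntrl, which is -0.52 ± 0.11 (SE), at an adjusted p by limma of 0.0579. A second bright probe changed by -0.69 ± 0.12 (SE) and was called lower in the probe fit, with an adjusted p of 0.0395 where 4.66% of all passing probes were called. The dimmest of the 3 changed by 0.42 ± 0.13 (SE), with an adjusted p of 0.121. S100A14, a member of epithelial cells, gave 6.69 and 6.15 in shT7#1, against 5.84 and 5.97 in shCntrl, which is 0.52 ± 0.20 (SE), at an adjusted p by limma of 0.178. Its difference was 0.25 without shT7#1 replicate 1, 0.79 without shT7#1 replicate 2 and 0.23 without background correction. S100A5 lay at 0.05 ± 0.23 (SE), with overlapping groups. S100A1, known from heart and skeletal muscle, gave 4.52 and 4.90 in shT7#1, where neither array passed background, against 5.15 and 5.18 in shCntrl. S100A1 was not called, at -0.45 ± 0.16 log2 units (SE), with an interval from -0.85 to -0.06 and a limma adjusted p of 0.145. Set against the detection floor the difference was 1.15-fold, and without background correction it was -0.15 log2 units. One of the 2 S100A7L2 probes was above background on shT7#1 replicate 1 alone, with a detection p of 0.0208. The other untested S100 genes, S100A7A, S100A12, S100B, S100G and S100Z, were not above background on any array.

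Read along chromosome 1, changes did not run in one direction. The RefSeq gene order puts S100A10 and S100A11 first, then 50 genes outside the family that include the epidermal differentiation genes, then the remaining S100 genes from S100A9 to S100A1. Neighbours S100A3 and S100A2 changed in opposite directions, and so did the fitted values of S100A16 and S100A14. Other neighbours shared a direction. S100A2 and S100A16, which lie next to each other, were both called lower. The fitted values of S100A13 and S100A1 were both negative, as were those of S100A10 and S100A11, without a call. Of the 50 genes in between, 43 had a probe and 3 were tested. Limma called 0 of these 3 at an adjusted p under 0.05, beside 6.50% of all genes tested. Of the same 3, 2 had an unadjusted p under 0.05, beside 25.9% of all genes tested. Those were FLG, which encodes the epidermal protein filaggrin that carries an S100 domain, and SMCP, a sperm mitochondrial gene. FLG gave 6.96 and 7.91 in shT7#1, against 5.89 and 6.65 in shCntrl. Its change of 1.17 ± 0.38 log2 units (SE) had a limma adjusted p of 0.127. FLG was the single tested gene of 7 whose proteins carry a fused S100 domain. Of the others, TCHH was above background on 1 shT7#1 array and the remaining 5 on none.

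**Figure D3:**
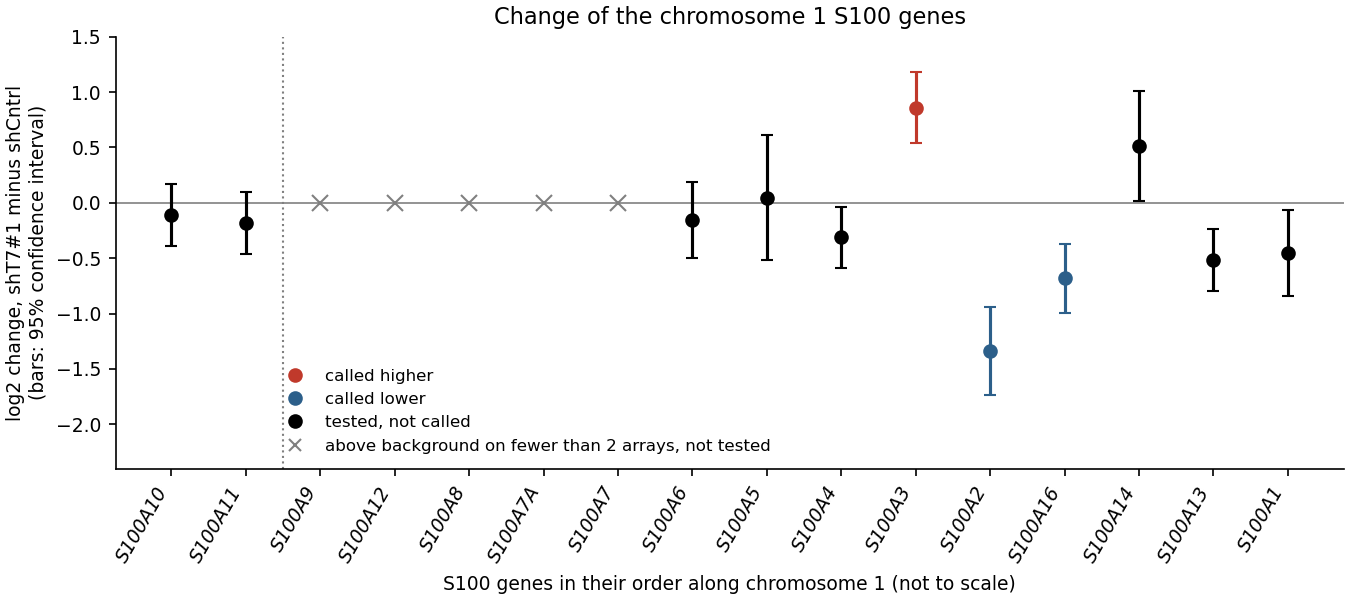
The log2 change (shT7#1 minus shCntrl) of the S100 genes of chromosome 1 in their RefSeq order, with 95% confidence intervals from limma for tested genes and crosses for genes that were not tested. The dotted line stands for the 50 other genes between S100A11 and S100A9, and the x axis is not to scale. S100A3 at 0.86 and its neighbour S100A2 at -1.34 lie on opposite sides of 0.

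Intracellular partners of S100 proteins were mostly not called. The list held known and possible partners. Of 31 tested of 37 listed, 1 rose, 4 fell and 26 were not called, beside 6.50% of all tested genes called in either direction. The annexin A2 gene ANXA2, whose product pairs with S100A10, lay at -0.01 ± 0.11 log2 units (SE), with an interval from -0.28 to 0.27. ANXA1, the partner of S100A11, also lay at -0.01 and MYH9, the myosin bound by S100A4, at -0.26, with limma adjusted p of 0.958 and 0.215. CACYBP, EZR (ezrin, bound by S100P) and AHNAK (a scaffold of the S100A10 complex) lay at 0.17, 0.11 and 0.06 log2 units at their brightest probes and were not called. A second, dimmer AHNAK probe changed by -1.23 log2 units, and another, undetected in shT7#1, was at least 1.38-fold lower. Both were called lower in the limma probe fit, with adjusted p of 0.0141 and 0.0482, where 4.66% of all passing probes were called. The AHNAK probes thus disagreed, and the authors' deposited table lists the gene at 0.38-fold. ANXA11, whose product binds S100A6, fell by 1.21 log2 units with an SE of 0.11 and a limma adjusted p of 0.00708, and by 0.90 at its second detected probe. CTSD, a lysosomal protease, and the acid-sensing channel gene ASIC1 fell by 0.91 and 0.80 log2 units. TGM2, a protein crosslinking enzyme, fell by 0.69, with a limma adjusted p of 0.0422.

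Receptors of secreted S100 proteins were changed in 2 of the 14 tested cases, from 20 listed, beside 6.50% of all genes tested. SDC4, a surface heparan sulfate proteoglycan, rose by 2.27 ± 0.13 log2 units (SE) and SDC1, a relative of it, fell by 0.68 log2 units with an SE of 0.14, with limma adjusted p of 0.00218 and 0.0490. RAGE could not be followed, since none of the 3 AGER probes was above background on any array. TLR4 lay at -0.05 ± 0.13 log2 units (SE) with a limma adjusted p of 0.850. Calcium-binding EF-hand proteins outside the family gave no calls. Of 38 tested of 47 listed, among them the calmodulin genes, limma called 0, and 7 had an unadjusted p under 0.05, beside 25.9% of all genes tested. Their changes ran from -0.53 to 0.61 log2 units, with a median of -0.13.

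**Figure D4:**
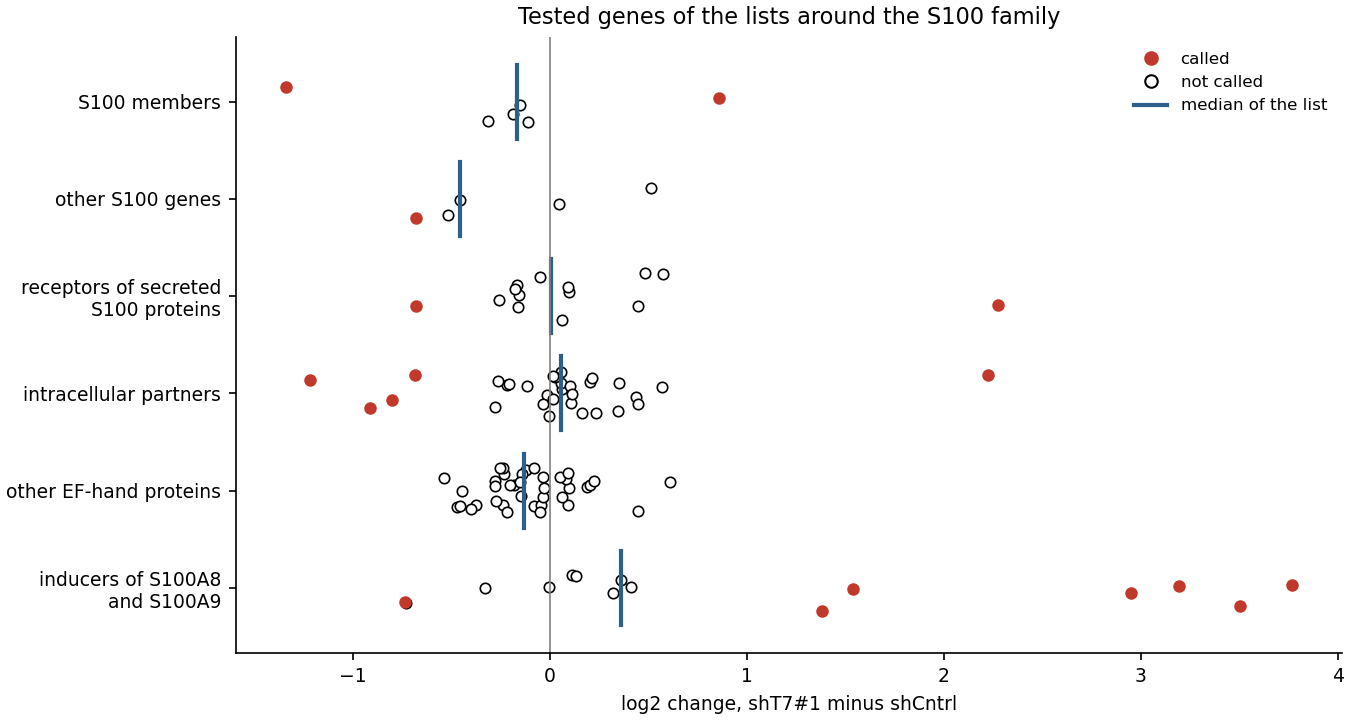
The log2 change (shT7#1 minus shCntrl) of each tested gene in 6 lists around the S100 family, 1 row a list. Red points were called at an adjusted p under 0.05, open points were not, and blue bars are list medians; the vertical scatter within a row has no meaning. The EF-hand row holds no called gene, while the inducers of S100A8 and S100A9 reach 3.77.

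The genes whose pattern over the 4 arrays was nearest to that of S100A2, the member with the smallest adjusted p, were FILIP1L, CAVIN3 and PLPP4. The distance between mean-centred log2 values was 0.09 for FILIP1L, 0.10 for CAVIN3 and 0.16 for PLPP4. CAVIN3, which encodes a coat protein of caveolae, gave 10.68 and 10.44 in shT7#1, against 12.12 and 11.87 in shCntrl. With 4 arrays such a likeness mostly restates the difference between the groups.

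TRPM7 itself gave no check of the labels, since the 1 probe for it stayed at background level on all 4 arrays. SOX4, the factor named in the title, fell by 2.12 log2 units with an SE of 0.12 and a limma adjusted p of 0.00218. Between 41.2% and 42.8% of the probes were above background on each array. All 10 markers expected in MDA-MB-231 were tested, of which TGFBI alone was called and fell by 1.35 log2 units. Beside this and the marker counts below, 6.50% of all genes tested were called in either direction. An unadjusted p under 0.05 was reached by 25.9% of all genes tested. Of 10 breast markers listed as low in this line, 4 were tested. Those 4, ERBB2, EPCAM, GATA3 and KRT19, were detected in both groups and not called, and KRT19, at 1891 and 2304 units in shT7#1 and 2754 and 3197 units in shCntrl, goes against that listing. Leukocyte markers, 2 of 18 tested and 0 called by limma with 0 at an unadjusted p under 0.05, had summed signals of 3857 to 4048 units in shT7#1 and 3858 to 3883 units in shCntrl. Sums here and below take every probe of a list before background correction, detected or not. Part of each sum is therefore background, and a likeness of sums says little about the genes. None of the 4 probes of PTPRC (CD45) was above background. The 2 leukocyte markers tested, FCGR3B and AIF1, were above background on all 4 arrays at the probe used. Keratinocyte markers, 4 of 13 tested, had summed signals of 4055 to 4147 units in shT7#1 and 4106 to 4168 units in shCntrl, with TRIM29 higher at least 3.67-fold. TRIM29 passed the detection filter only through shT7#1 arrays, and another passing probe of it was at least 1.43-fold higher. The other keratinocyte markers tested, KRT10, DSC3 and TP63, were not called. Of 10 fibroblast markers 3 were tested, and limma called 0, with 1 at an unadjusted p under 0.05. Their list summed to between 1882 and 2114 units in shT7#1 and between 2049 and 2204 units in shCntrl. The 1 was COL1A2, at -0.72 ± 0.15 log2 units (SE) with a limma adjusted p of 0.0544. A second passing COL1A2 probe fell by 2.32 log2 units, with an adjusted p of 0.0032 in the limma probe fit. The authors' deposited table lists COL1A2 at 0.21-fold.

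**Figure D5:**
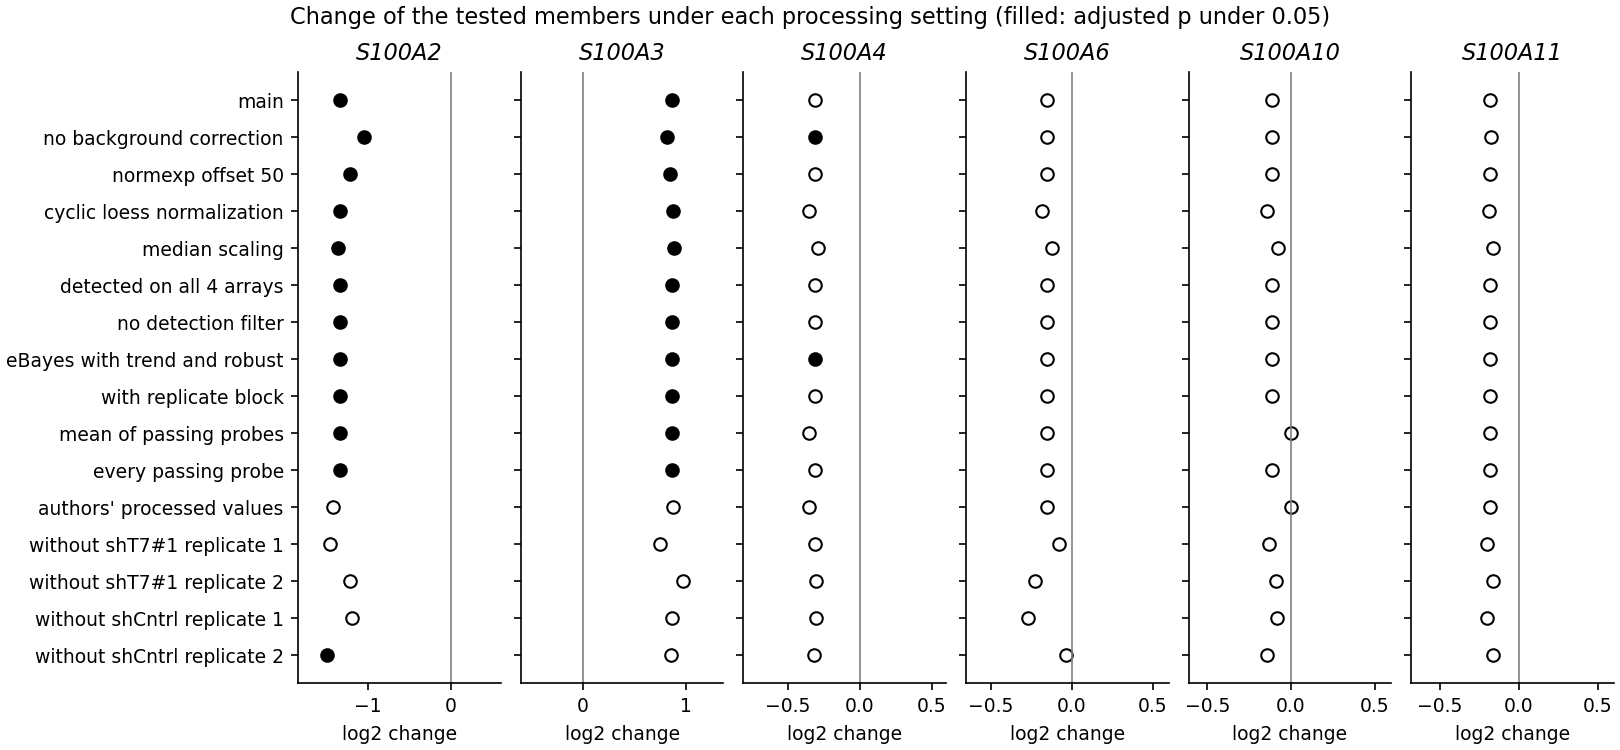
The log2 change (shT7#1 minus shCntrl) of the 6 tested members under the main processing and 15 other settings, 1 row a setting, on axes of different range. Filled points have a limma adjusted p under 0.05. S100A2 stayed below 0 and S100A3 above 0 in every row, and the open points of both cluster in the rows that leave out an array or use the authors' processed values.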

How the data were processed

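Each probe and array had a linear signal intensity and a detection p-value in the unnormalised data, per the file headers. The submitters' processing notes name GenomeStudio 2011.1. Per the file headers, the authors' processed log2 values were normalised by RMA in ArrayStar, and the fold ratio of shT7#1 over shCntrl was deposited by the authors beside group means, without genes under 2.5 log2 units in both groups. The shCntrl columns of the authors' value table followed the signals of the other shCntrl replicate number (correlations of gene-centred values 0.79 and 0.77 crossed, 0.06 and 0.08 uncrossed, over 21910 genes with 1 probe), and which numbering is right is not known. Group means are not affected, but the replicate block and the naming of left-out shCntrl arrays follow the unnormalised data.

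Intensities were processed with limma 3.58.1 in R 4.3.3: normexp background correction from the detection p-values (offset 16), quantile normalisation and log2. Probes with a detection p below 0.05 on at least 2 of 4 arrays passed, which 20366 did, and each of 14731 genes was taken at its brightest passing probe. Symbols were updated through a RefSeq table. The model was lmFit with eBayes on all 4 arrays, with Benjamini-Hochberg adjustment over all genes and 2 residual degrees of freedom. Only 4 arrays limit the precision. The fit was checked on simulated data. The members and lists were chosen with earlier results of these data known. Named were all members at every probe, S100 relatives above background, up to 5 called genes a list in order of adjusted p, and 9 partner and receptor genes whatever their values. The values of 1 called gene are not reported here. Alternatives changed the background correction, normalisation, detection filter, choice of probe, variance model, replicate block or table of values, or left out 1 array. Same-numbered arrays were not taken as pairs. Promoter sequences came from RefSeq, build GRCh38.p14, and all 10 members matched. No slide or scan batch was given in the sources used here.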

Additional observations from a re-analysis of the deposited data

How the results depend on the processing

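S100A2 stayed lower and S100A3 higher in shT7#1 under all 15 alternatives, between -1.49 and -1.04 log2 units for S100A2 and between 0.75 and 0.97 for S100A3. The call was kept in 11 of 15 for S100A2 and in 10 of 15 for S100A3. The members called higher were 0 in place of 1 on the authors' processed values, and 0 in each fit that left out 1 array (range 0 to 0). The members called lower were 2 without background correction and 2 with trend and robust variance, both by adding S100A4, 0 on the authors' processed values, and between 0 and 1 without 1 array. A left-out array leaves a group with 1 array, which is assumed to vary like the other group. S100A13 was called lower in 4 of 15 alternatives and S100A16 in 8 of 15. Over all genes, 434 were called higher and 523 lower. These counts were 1161 and 1262 without background correction, 962 and 1086 with an offset of 50, 699 and 818 where detection on all 4 arrays was required (12522 genes tested), 1180 and 1305 with trend and robust variance, and 111 and 97 on the authors' processed values, and between 69 and 86 higher and between 38 and 53 lower without 1 array. Of the tested members and relatives, the S100A5 difference changed sign in 3 of 15 alternatives and was called in 0.

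A fit with the replicate number as a block gave 563 higher and 676 lower genes and changed no call of a member, with an adjusted p of 0.00813 for S100A2 and 0.0253 for S100A3. The numbers were not taken to pair the arrays, since the labels do not say that equal numbers mark a shared culture or day. The deviations of same-numbered arrays correlated at 0.12 over tested genes, which cannot settle pairing because the shCntrl numbering is itself uncertain. With the shCntrl numbers exchanged, as in the authors' value table, that correlation would have the opposite sign, and a block with exchanged numbers was not fitted. Members near or below background, S100A7, S100A8, S100A9 and S100P, are limited by signal over background, and no alternative gave them a value that was used.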
